A study of Mus musculus with 12 samples.

Results

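The replication-dependent histone genes were examined in the adrenal gland of KK/HIJ and C57BL/6J mice. The members were all genes whose symbol belongs to the H1f, H2ac, H2bc, H3c or H4c series, or to the older Hist series, and that had a probeset of their own, meaning that the platform annotation gave the probeset exactly 1 gene symbol. This found 21 of the 6986 genes with such a probeset, and each of the 21 had 1 probeset. They were 5 linker histone genes, 4 H2A genes, 6 H2B genes and 6 H4 genes. No H3 gene of these series had a probeset of its own. All 21 lie on chromosome 13, where the RefSeq annotation places 55 histone genes of these series (of 70 in all). Of those 55, a further 32 were measured only by probesets annotated to several genes and 2 by none.

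Adrenal RNA was hybridized to Affymetrix Mouse Gene 2.0 ST arrays in 4 groups, namely C57BL/6J males (C57-M), KK/HIJ males (KK-M), C57BL/6J females (C57-F) and KK/HIJ females (KK-F), all 21 weeks old by the labels, on standard chow. KK/HIJ is an inbred strain that develops obesity and insulin resistance, and C57BL/6J is the inbred control strain. Mice of all groups had fasting glucose, insulin tolerance and behavior measured before the glands were frozen, with insulin injected for the tolerance test and, per the methods, xylazine and ketamine given at euthanasia. Of the measured markers of adrenal cortex, Cyp11b1 had group means from 12.46 to 12.83, Cyp11b2 from 9.10 to 10.22, and Akr1c18 from 3.25 in C57-M to 12.27 in KK-F. The RNA of each group was 1 pool applied to 3 arrays, so the 12 arrays are repeat measurements of 4 pools, and no p-value below covers the spread between mice.

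Replication-dependent histone genes encode the linker histone H1 and the core histones H2A, H2B, H3 and H4 that package new DNA, and most of their transcription takes place in S phase. Their mRNAs usually end in a stem-loop, bound by the protein SLBP, in place of a poly(A) tail, although some are also found with a tail in tissues whose cells no longer divide. The methods describe priming with random hexamers, which does not require a poly(A) tail. The genes of 1 class are near copies of each other, so a probe can take up RNA of several of them, and how far each probeset did so was not tested.

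Most members were at the low end of the array. Values are log2 expression after robust multi-array averaging (RMA), and a gene was tested where its mean was at least 4 in 1 or more groups. Of the 21 members 5 passed, and of all 6986 genes 4414. The 16 members that did not pass lay between 1.96 and 4.19 on single arrays, with group means from 2.06 to 3.98. H4c9, an H4 gene, came nearest to the filter from below with a mean of 3.98 in C57-F, and H2ac1, a testis-type H2A gene, lay nearest above it with means of 3.78, 3.69, 4.34 and 4.21 in C57-M, KK-M, C57-F and KK-F. Over the 12 arrays the brightest and dimmest members were H1f2 (6.97) and H1f6 (2.59) of the linker histones, H2ac10 (6.04) and H2ac12 (2.12) of H2A, H2bc3 (4.85) and H2bc1 (2.27) of H2B, and H4c12 (9.20) and H4c8 (2.18) of H4. H1f6 and H2bc1 are also testis-type histones. H4c12 was brighter than 98.3% of all genes with a probeset, H1f2 than 85.1%, H2ac10 than 71.7%, H2bc3 than 53.3% and H2ac1 than 40.4%, a description of probeset signal that does not order the amounts of mRNA.

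**Figure D1:**
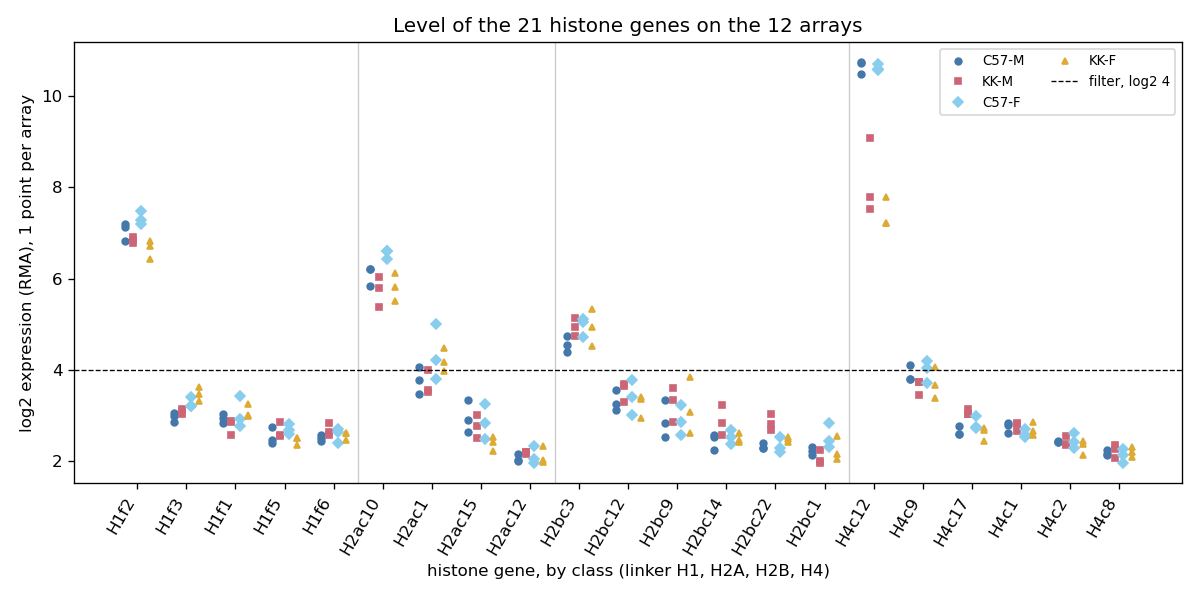
Log2 expression (vertical axis, RMA) of the 21 histone genes (horizontal axis, by class) on the 12 arrays, with 1 point per array and the filter at 4 as a dashed line. H4c12 lies far above the other H4 genes, and its 6 KK arrays lie below its 6 C57 arrays.

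The promoters of 3 members that were lower in KK-F than in C57-F and of H2bc3, which passed no test, are shown to place the genes. Each is the 250 bases before the RefSeq transcription start on the strand of the gene (GRCm38.p6, all 21 members matched), 5′ to 3′, with capitals marking matches, on either strand, to TATAAA (the core element bound by TBP), CCAAT (bound by the factor NF-Y), ATTTGCAT (the octamer bound by POU factors), AAACACA (H1 box of linker histone genes) and CGGAC (core of the element bound by Hinfp in H4 genes). The windows are chr13:21750554-21750803, minus strand (H4c12), chr13:23533625-23533874, plus strand (H2ac10), chr13:23738557-23738806, plus strand (H1f2) and chr13:23746484-23746733, plus strand (H2bc3).
H4c12: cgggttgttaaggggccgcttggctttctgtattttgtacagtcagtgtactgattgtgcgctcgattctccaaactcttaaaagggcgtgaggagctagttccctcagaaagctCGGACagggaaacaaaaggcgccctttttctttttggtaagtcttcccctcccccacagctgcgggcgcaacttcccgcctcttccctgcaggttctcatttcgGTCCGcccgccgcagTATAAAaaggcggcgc
H2ac10: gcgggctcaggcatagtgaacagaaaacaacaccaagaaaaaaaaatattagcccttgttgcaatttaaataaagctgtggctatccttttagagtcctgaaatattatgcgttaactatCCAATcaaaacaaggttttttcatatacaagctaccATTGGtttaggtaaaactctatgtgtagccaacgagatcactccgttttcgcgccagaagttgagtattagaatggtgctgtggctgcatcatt
H1f2: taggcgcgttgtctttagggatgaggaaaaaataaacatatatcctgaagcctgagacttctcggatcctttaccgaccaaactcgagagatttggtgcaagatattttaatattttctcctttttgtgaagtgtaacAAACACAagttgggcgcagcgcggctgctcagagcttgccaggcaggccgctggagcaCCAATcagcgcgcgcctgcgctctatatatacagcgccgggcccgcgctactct
H2bc3: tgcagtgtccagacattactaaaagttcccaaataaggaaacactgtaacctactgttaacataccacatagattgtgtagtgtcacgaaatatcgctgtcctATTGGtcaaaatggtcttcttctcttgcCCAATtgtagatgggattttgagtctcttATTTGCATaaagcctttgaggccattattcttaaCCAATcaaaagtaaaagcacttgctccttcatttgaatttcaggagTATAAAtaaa

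Over the 21 members, TATAAA was found in 11 windows (52.4%, against 12.4% of 32841 RefSeq promoter windows of the same length), CCAAT in 16 (76.2%, against 33.9%), ATTTGCAT in 6 (28.6%, against 1.6%), AAACACA in 7 (33.3%, against 6.25%) and CGGAC in 7 (33.3%, against 19.2%). ATTTGCAT was found in the windows of 4 H2B and 2 H2A genes. In H4c12, TATAAA began 16 bases before the start and CGGAC lay on both strands, 135 and 31 bases before it. These are matches of letters and not tested sites.

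H4c12 was the member with the largest strain difference. It encodes the core histone H4 and was formerly Hist1h4k, and it is 1 of the histone genes that the study itself named as higher in C57BL/6J, so its direction here is not independent evidence. Its values on the arrays were 10.71, 10.73 and 10.47 in C57-M and 9.07, 7.53 and 7.79 in KK-M. In females they were 10.59, 10.57 and 10.69 in C57-F and 7.22, 7.22 and 7.79 in KK-F. All 6 C57 arrays lay above all 6 KK arrays, and the 2 C57 groups overlapped. Of all 4414 tested genes, 47.6% did not overlap in KK-M v C57-M and 48.4% in KK-F v C57-F. The difference was -2.51 ± 0.30 (SE) in males (5.69-fold lower in KK-M, adjusted p = 4.1e-05) and -3.21 ± 0.30 in females (9.24-fold lower in KK-F, adjusted p = 5.2e-06), in limma with Benjamini-Hochberg adjustment. In a bulk sample, fewer cells of a type and less RNA per cell cannot be told apart. The probe sequences were not among the sources used here, so strain alleles under the probes were not tested.

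The KK-M arrays of H4c12 were spread more widely than those of nearly all other genes. Their SD was 0.823, above that of 99.9% of the tested genes of that group, against a median SD of 0.145. Replicate 1 stood at 9.07 and the other arrays at 7.53 and 7.79. KK-M v KK-F gave 0.72 ± 0.30 with an adjusted p of 0.088 and the strain by sex interaction 0.70 ± 0.42 with an adjusted p of 0.28, so neither passed the test. Over both sexes the mean strain difference was -2.86 ± 0.21 (adjusted p = 2.6e-07).

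Markers of hepatocytes moved in the same direction between the strains. All 7 measured genes of that list were lower in KK-M than in C57-M and lower in KK-F than in C57-F, with median differences of -2.64 and -3.73. Their mean level lay between 7.29 and 7.35 on the C57-M arrays, 3.92 and 5.29 on the KK-M arrays, 8.06 and 8.14 on the C57-F arrays and 4.05 and 4.11 on the KK-F arrays. KK-M replicate 1 was the highest KK array for both the hepatocyte list (5.29, against 4.02 and 3.92 for the other KK-M arrays) and H4c12. In KK-F, replicate 3 was highest for H4c12 (7.79, against 7.22 and 7.22) and lowest for the list (4.05, against 4.11 and 4.1). The list was higher in C57-F than in C57-M, whereas H4c12 overlapped between these groups. All 8 measured skeletal muscle markers were higher in KK-M, at a mean of 6.52 to 6.78 against 3.65 to 3.91 in the other groups. Of these, Myh1, Myh8, Actn2, Myoz1 and Casq1 passed the filter through KK-M alone, so their calls are tied to the filter. Chromaffin cell markers (3 of 4) were higher in KK/HIJ of both sexes, at means of 9.91 to 10.1 in KK-M against 9.06 to 9.09 in C57-M, and 9.61 to 9.67 in KK-F against 8.56 to 8.74 in C57-F. All 4 measured adipocyte markers were lower in KK-F than in C57-F (mean level 6.34 to 6.5 against 7.48 to 7.57, median difference -1.06), and 2 of 4 were lower in KK-M than in C57-M (7.45 to 7.47 against 7.65 to 7.82). Of 4 measured B cell markers 2 were tested. Ighm, an immunoglobulin gene, was lower in KK/HIJ males and females (-0.50 and -1.15), and Cd79b was called in neither (-0.44 and 0.11). Of 4 macrophage markers, 2 were lower in KK-M (7.47 to 7.59 against 8.26 to 8.33), whereas 3 were higher and 1 lower in KK-F (7.52 to 7.72 against 7.16 to 7.33). Of all tested genes, 7.05% were higher and 13.4% lower in KK-M v C57-M, and 9.56% higher and 9.06% lower in KK-F v C57-F. In KK-M v KK-F 7.27% were higher. The part of the listed tissues and cells in the histone values, H2ac10 and H1f2 included, was not tested.

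**Figure D2:**
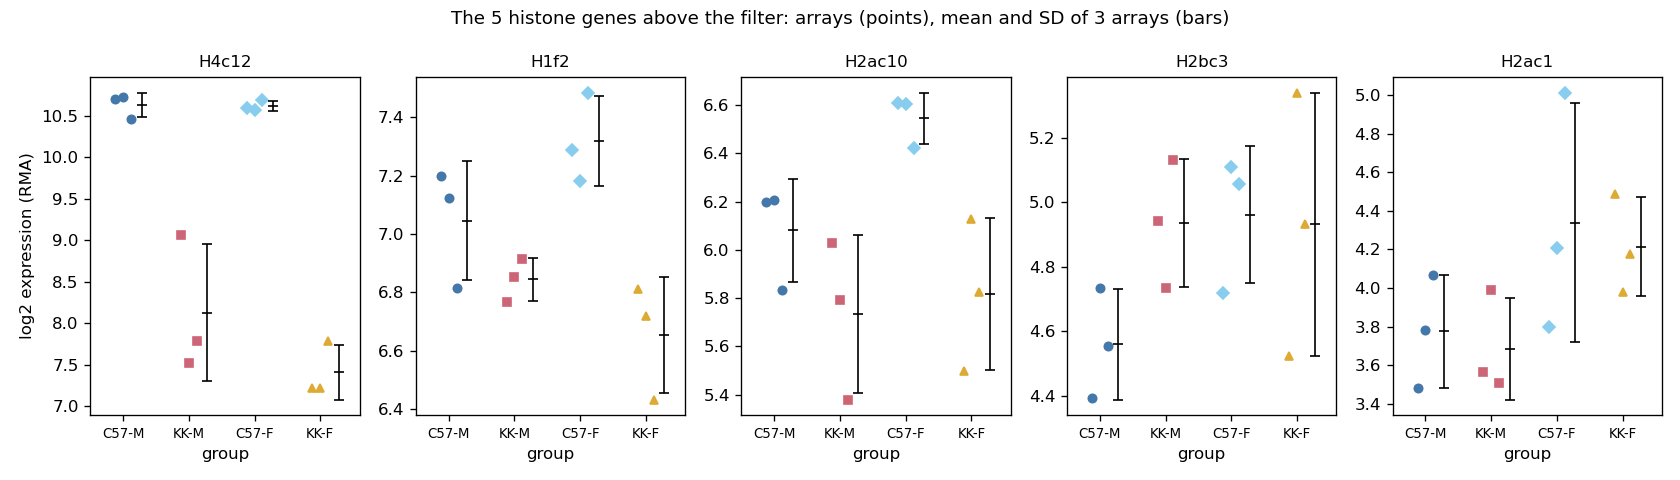
Log2 expression (vertical axis, RMA, a scale of its own in each panel) of the 5 members above the filter in the 4 groups. Points are arrays and bars the mean and SD of 3 arrays, and only H4c12 shows all arrays of one strain above all of the other in both sexes.

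In KK-M v C57-M, 1 of the 5 tested members was called, H4c12, lower in KK-M, where called means a fold change of at least 1.4 and an adjusted p under 0.05. Of all 4414 tested genes, 20.4% were called in this comparison (13.4% lower). In KK-F v C57-F, 3 members were called, all lower in KK-F, against 18.6% of all tested genes (9.06% lower). The median difference over the 5 members was -0.66 in females and -0.20 in males, against 0.03 and -0.07 over all tested genes. The male and the female strain comparison share no arrays. Whether the members differ from other genes was not tested.

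Among the H2A genes, H2ac10, which encodes a core H2A, read 6.61, 6.61 and 6.42 in C57-F and 5.50, 6.13 and 5.82 in KK-F. The groups did not overlap, as was so for 48.4% of all tested genes, and the difference was -0.73 ± 0.18 (adjusted p = 0.0076). In males the values were 6.20, 6.21 and 5.84 in C57-M and 6.03, 5.79 and 5.38 in KK-M, which overlapped, with a difference of -0.35 ± 0.18 that did not pass the test (adjusted p = 0.17). Over both sexes H2ac10 fell by 0.54 on the log2 scale (SE 0.13, adjusted p = 0.0036). This mean difference was under the fold threshold without KK-M replicate 3 (-0.45) or KK-F replicate 1 (-0.46), and on the 4 pool means its adjusted p was 0.13.

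H1f2, formerly Hist1h1c, encodes a linker histone that is widely expressed. Its arrays read 7.29, 7.18 and 7.49 in C57-F and 6.81, 6.72 and 6.43 in KK-F. They did not overlap, as was so for 48.4% of all tested genes, and the difference was -0.66 ± 0.13 (adjusted p = 0.0015). In males they read 7.20, 7.12 and 6.81 in C57-M and 6.77, 6.85 and 6.91 in KK-M, with a difference of -0.20 ± 0.13 (adjusted p = 0.26). The interaction for H1f2 was 0.46 ± 0.18 with an adjusted p of 0.093, so a difference between the sexes was not shown. Its mean strain difference, -0.43 ± 0.09 (adjusted p = 0.0015), was under the fold threshold.

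H2bc3, an H2B gene, was called in no comparison. Its group means were 4.56, 4.94, 4.96 and 4.93 in C57-M, KK-M, C57-F and KK-F, with arrays between 4.39 and 5.34 that overlapped in every pairwise comparison. Its strain difference was 0.38 ± 0.18 in males (adjusted p = 0.15) and -0.03 ± 0.18 in females (adjusted p = 0.92).

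H2ac1 was the only member called between the sexes. It read 3.48, 3.78 and 4.07 in C57-M, 3.56, 3.99 and 3.51 in KK-M, 3.80, 4.21 and 5.01 in C57-F and 4.49, 3.98 and 4.18 in KK-F. The arrays overlapped between the sexes in both strains. The mean sex difference, males minus females, was -0.54 ± 0.18 (adjusted p = 0.037). The gene passed the filter through its female groups alone, so this call is tied to the filter. It was lost as each of 7 of the 12 arrays was left out (C57-M replicates 1 and 2, KK-M replicates 1 and 3, C57-F replicate 3, KK-F replicates 1 and 3), with adjusted p up to 0.089. The SD in C57-F, 0.618, exceeded that of 99.9% of tested genes.

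In KK-M v KK-F and in C57-M v C57-F, limma called none of the 5 members, against 18.8% and 7.07% of all tested genes. At an unadjusted p under 0.05 there were 1 (H4c12) and 2 (H2ac10 and H2bc3), and an ordinary linear model without moderation also called 0 in both. For no comparison was the share of all tested genes at that unadjusted threshold counted. For the mean strain difference 2 members were called (15.5% of all tested genes) and for the mean sex difference 1 (8.61%), H2ac1, whose call is tied to the filter and was lost with no filter (adjusted p = 0.051). None was called for the interaction (13.9% of all tested genes), where 1 member, H1f2, had an unadjusted p under 0.05 and the ordinary linear model called 0.

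The 16 members under the filter had group means between 2.06 and 3.98, which left no room for a difference of the size of that of H4c12. Their mean differences lay between -0.26 and 0.51 in KK-M v C57-M and between -0.47 and 0.29 in KK-F v C57-F. H4c17, the former Hist1h4m, was another gene named by the study, as higher in C57BL/6J. Its own probeset had group means of 2.65, 3.07, 2.82 and 2.62 in C57-M, KK-M, C57-F and KK-F. The differences were 0.42 in KK-M v C57-M, opposite to the study's direction, and -0.20 in KK-F v C57-F. A shared probeset of 6 H4 genes that includes H4c17 is given below. With no filter, H2bc22, an H2B gene at 2.30, 2.29 and 2.41 in C57-M and 3.03, 2.83 and 2.67 in KK-M, was also called (0.51 ± 0.11, adjusted p = 0.0056). In the gene order of the chromosome, H4c12 lies between H4c11, which had no probeset of its own, and H2ac15. The group means of H2ac15 were 2.96, 2.75, 2.86 and 2.39.

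A further 32 probesets, of which 30 held distinct values, were annotated to several genes, with 10 different annotations and 48 histone genes among them. H2bc4, formerly Hist1h2bc and the third gene that the study named, was measured only by such probesets. The study listed this gene as lower in KK/HIJ in adrenal and pancreas, and also measured it by quantitative PCR. A lower value in KK/HIJ here is therefore not independent evidence, and the PCR values were not used. The shared probesets were tested in a fit over all 4912 probesets with 1 or more gene symbols that passed the filter. This fit was added after the data were seen. Of the 30, 10 passed, namely 7 of 8 H2B, 2 of 8 H2A, 1 of 9 H3 and 0 of 5 H4 probesets. The 8 other H3 probesets lay between 1.88 and 3.49 on all arrays.

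The 2 probesets annotated to H2bc4, H2bc6 and H2bc8, which encode core H2B, did not behave alike. The brighter read 8.63, 8.89 and 8.28 in C57-M, 7.43, 6.83 and 4.99 in KK-M, 9.01, 8.90 and 9.03 in C57-F and 6.02, 6.16 and 6.58 in KK-F. It was lower in KK/HIJ without overlap, by -2.19 ± 0.44 in males (4.55-fold, adjusted p = 0.0023, and -1.47 without KK-M replicate 3) and -2.73 ± 0.44 in females (6.62-fold, adjusted p = 0.00046). Its KK-M arrays had an SD of 1.27, and KK-M replicate 3 was the lowest at 4.99.

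The dimmer of the 2 read 3.24, 3.62 and 3.35 in C57-F and 4.95, 4.68 and 4.56 in KK-F, higher in KK-F by 1.32 ± 0.19 (adjusted p = 0.00022), where the brighter was lower. It passed the filter through KK-F alone (mean 4.73, against 3.40 to 3.99 in the other groups), so its calls against KK-F are tied to the filter. With no filter the adjusted p was 0.00027. In males it read 3.68, 4.05 and 3.42 in C57-M and 4.33, 4.03 and 3.62 in KK-M, which overlapped (0.27 ± 0.19, adjusted p = 0.32). KK-M v KK-F gave -0.73 ± 0.19 (adjusted p = 0.012), with an adjusted p of 0.016 with no filter, and this call was lost without KK-F replicate 1 (-0.62). A probeset annotated to the same genes and to H1f4, a linker histone gene, gave -0.31 in males and 0.31 in females, both under the fold threshold.

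**Figure D3:**
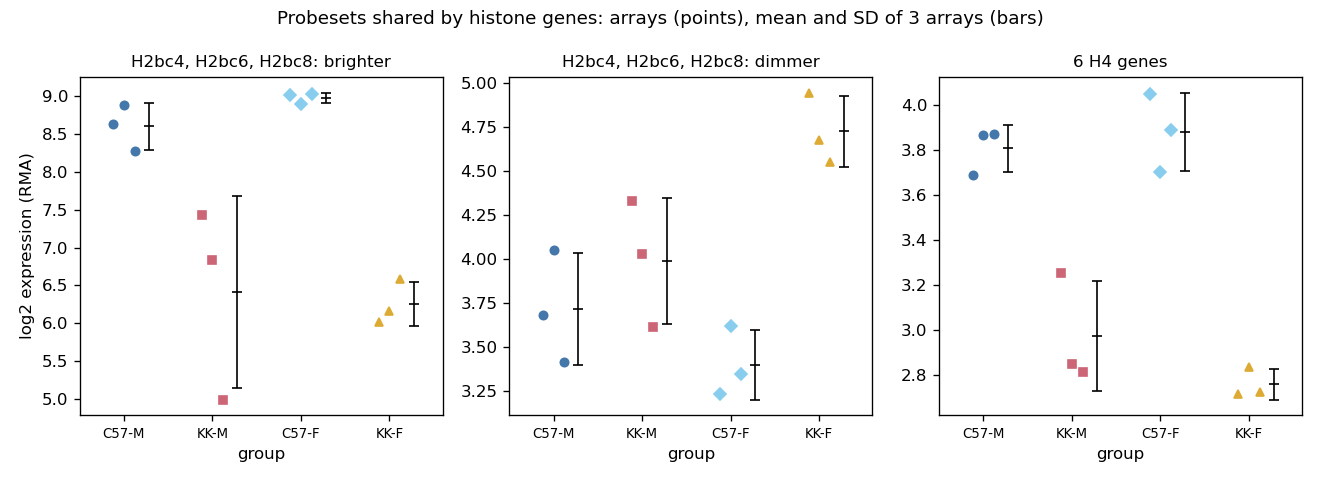
Log2 expression (vertical axis, RMA, a scale of its own in each panel) of the 2 probesets annotated to H2bc4, H2bc6 and H2bc8 and of the probeset of 6 H4 genes in the 4 groups. Points are arrays and bars the mean and SD of 3 arrays, and the brighter H2bc4, H2bc6 and H2bc8 probeset is lower in both KK groups while the dimmer is highest in KK-F.

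The 2 brightest shared probesets were called in no pairwise comparison. The brightest, of H2bc7, H2bc11, H2bc13 and H2bc15, had group means from 10.33 to 10.65, and a 12-gene H2B probeset had means from 9.27 to 9.55. Another probeset of the same 4 genes as the brightest had means of 5.09, 4.41, 5.26 and 4.50 in C57-M, KK-M, C57-F and KK-F. Its strain differences, -0.68 ± 0.32 in males and -0.76 ± 0.32 in females, were not called. Its mean strain difference was (-0.72 ± 0.23, adjusted p = 0.02). A probeset of 10 H2A genes was lower in KK-F, at 7.89, 7.95 and 7.94 in C57-F and 7.12, 7.27 and 7.58 in KK-F (-0.60 ± 0.12, adjusted p = 0.0027). Of the 10 tested shared probesets, 1 was called in KK-M v C57-M (20.7% of all tested probesets) and 3 in KK-F v C57-F (18.9%), of which 2 were lower. In KK-M v KK-F 1 was called (18.3%) and in C57-M v C57-F 0 (6.84%). In C57-M v C57-F, 4 had an unadjusted p under 0.05, with annotations that overlap within H2B and within H2A. The share of all probesets at that threshold was not counted. For the interaction 2 were called (13.5%).

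Shared H4 probesets did not carry the level of H4c12. The 4 probesets annotated to 13 genes, H4c12 among them, read 2.1 to 3.77 on all arrays. A probeset of 6 other H4 genes (H4c1, H4c2, H4c8, H4c9, H4c17 and H4c18) was under the filter and had no test, at 3.69, 3.87 and 3.87 in C57-M, 3.26, 2.85 and 2.82 in KK-M, 4.05, 3.70 and 3.89 in C57-F and 2.72, 2.84 and 2.72 in KK-F. Its KK arrays lay below its C57 arrays in both sexes, by -0.83 and -1.12 in the group means.

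**Figure D4:**
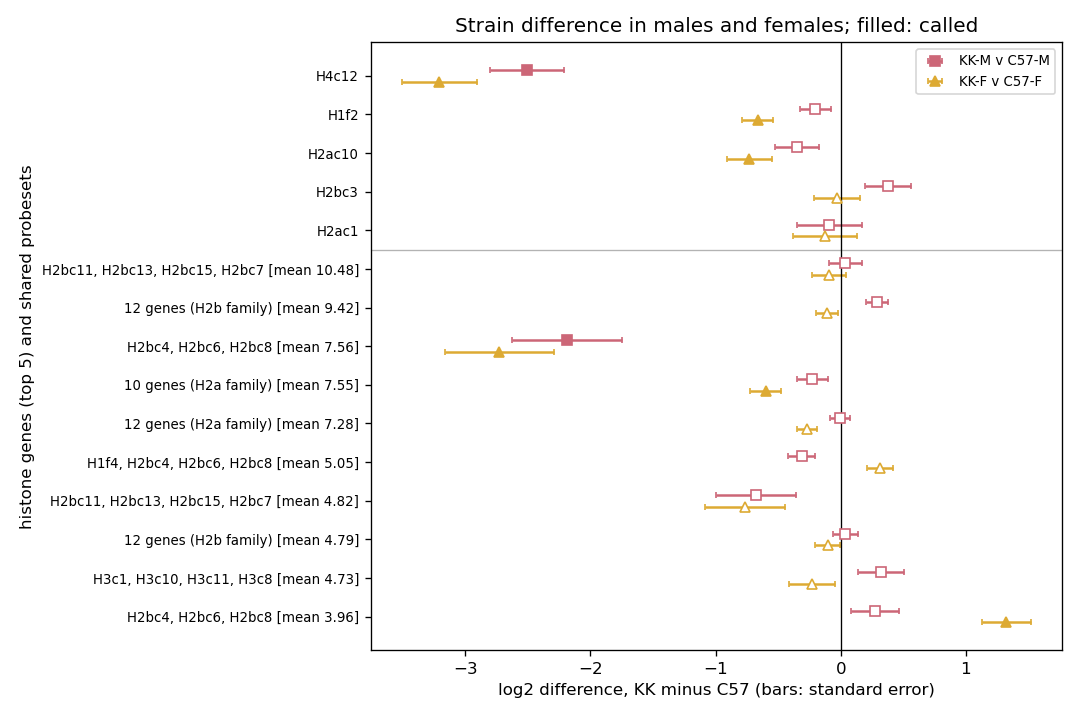
Log2 difference (horizontal axis, KK minus C57) with its standard error in males and females for the 5 tested members and the 10 tested shared probesets, which are listed by their genes and 12-array mean. Filled points are called, with H4c12 and the brighter H2bc4, H2bc6 and H2bc8 probeset the farthest to the left.

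The genes that work with the histones were measured from lists of replacement variants, mRNA processing and transcription factors, chaperones, and genes of S phase and mitosis. Over all tested genes, 7.05% were higher and 13.4% lower in KK-M v C57-M. In KK-F v C57-F the shares were 9.56% higher and 9.06% lower. The share lower was 11.6% in KK-M v KK-F, 2.74% in C57-M v C57-F and 10.1% for the interaction. Whether the lists differ from other genes was not tested. Of 5 replacement variants measured 4 were tested, and H2az2, which encodes an H2A.Z protein, was lower in KK/HIJ of both sexes (-0.71 ± 0.09 in males, adjusted p = 9e-05, and -0.55 ± 0.09 in females, adjusted p = 0.00064). Of 7 tested processing and transcription genes, none was called in KK-M v C57-M and 1 was higher in KK-F, Lsm11, a part of the U7 particle that cuts histone pre-mRNA (0.57 ± 0.16, adjusted p = 0.018). Cpsf2 and Tut7, which act in the cutting and decay of histone mRNA, were lower in the KK males than in the KK females (-0.56 and -0.68). Of 12 chaperones 2 were lower in KK-M than in C57-M, Asf1a, which carries H3 and H4 (-0.54 ± 0.13), and Supt16, a subunit of FACT (-0.58 ± 0.13), and 1 was higher in KK-F than in C57-F, Tspyl4 (0.51 ± 0.12). Between the KK sexes 2 were lower in males, Dnajc9, which binds H3 and H4 (-0.64 ± 0.10, adjusted p = 0.00039), and Nap1l1 (-0.49 ± 0.13, adjusted p = 0.012). Dnajc9 was also called for the interaction (-0.57 ± 0.14, adjusted p = 0.017).

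The S phase and mitosis genes were mostly dim. Of 35 measured, 12 passed the filter and 1 was called in each strain comparison, Mcm6, a subunit of the replicative helicase. Its group means were 5.83, 4.57, 6.06 and 4.93 in C57-M, KK-M, C57-F and KK-F, with differences of -1.25 ± 0.10 (adjusted p = 1e-06) and -1.12 ± 0.10 (adjusted p = 2.6e-06). Cdk1, the kinase of mitosis, was lower in males of both strains (-0.58 in KK/HIJ and -0.74 in C57BL/6J), and Mcm3 was lower in males in KK/HIJ (-0.70). The median over the 12 was 0.05 in KK-M v C57-M and -0.03 in KK-F v C57-F, against -0.07 and 0.03 over all tested genes.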

How the data were processed

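Adrenal RNA pools of 4 groups were measured on 3 arrays each (12 Affymetrix Mouse Gene 2.0 ST arrays). The deposited values are log2 expression for each probeset, which the authors made in Partek by RMA (background correction, quantile normalization and median polish). The genome build of the probesets is not given in the sources used here. Of 16378 probesets, 7358 carried 1 gene symbol, 456 several and 8564 none. The brightest probeset per gene by its 12-array mean was kept. limma 3.58.1 (R 4.3.3) was fitted with 1 mean per group over 4414 genes (mean of at least 4 in 1 or more groups), with 8 residual and 4.84 prior degrees of freedom. P-values were adjusted by Benjamini-Hochberg, jointly over the 4 pairwise contrasts and singly for the mean strain difference, mean sex difference and interaction. A gene was called at a fold change of at least 1.4 and an adjusted p under 0.05. The fit was tested on simulated data. Members and gene lists were chosen with earlier results of these data known. Values over all 12 arrays are given for members called in a pairwise contrast, and up to 4 called genes with the largest differences are named per list of histone-related genes (with Nap1l1 added after its values were seen), besides the genes that the study named. Arrays give no read depth, and their number limits the precision. Array medians lay between 3.88 and 3.99. The alternatives were other filters, scalings, variance models, thresholds and arrays left out, and a fit over probesets added after the data were seen.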

Additional observations from a re-analysis of the deposited data

Results flagged for a closer look

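No member had a strain difference that differed between the sexes by the interaction term. In the fit over all probesets, 2 of the 10 tested probesets shared by several histone genes were called for the interaction. Of all tested probesets, 13.5% were. By an adjusted p under 0.05 alone it was 3 of the 10, and the share of all probesets by that rule was not counted. The dimmer probeset of H2bc4, H2bc6 and H2bc8 had an interaction of -1.05 ± 0.27 (adjusted p = 0.021), with a strain difference of 0.27 in males and 1.32 in females. It passed the filter through KK-F alone, so this call is tied to the filter, and with no filter its adjusted p was 0.031. The probeset of H1f4, H2bc4, H2bc6 and H2bc8 had an interaction of -0.63 ± 0.15 (adjusted p = 0.014). The 12-gene H2B probeset at a 12-array mean of 9.42 had an interaction of 0.40 ± 0.13 (adjusted p = 0.048), under the fold threshold of 1.4. Groups of 3 arrays were too small for a search for outlying arrays.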

How the results depend on the processing

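The strain differences of H4c12 in both sexes, of H2ac10 and H1f2 in KK-F v C57-F, and the mean strain difference of H4c12 kept their direction and call under every alternative that gave a value, except that H2ac10 and H1f2 were not called at a fold change of at least 2. Over those alternatives H4c12 ranged from -2.98 to -2.21 in males (highest adjusted p 0.0017) and from -3.40 to -3.11 in females (highest adjusted p 0.00052), H2ac10 in females from -0.88 to -0.57 and H1f2 in females from -0.74 to -0.55. No called difference of a member reversed. With no filter the count was 2 in KK-M v C57-M (H2bc22 added), 0 for the mean sex difference and 1 for the interaction (H4c17). With a fold change of at least 2 it was 1 in KK-F v C57-F, 1 for the mean strain difference and 0 for the mean sex difference. Quantile normalization gave 1 in KK-M v KK-F (H4c12), 0 for the mean sex difference and 1 for the interaction (H1f2). A trend in the prior variance gave 1 in KK-M v KK-F (H4c12), and a fit on the compared groups alone 1 (H2ac1). The mean sex difference gave 0 with a mean of at least 5, with median centring and with no variance moderation. The fit on the 4 pool means, with 1 residual degree of freedom, gave 1 for the mean strain difference (H4c12) and 0 for the mean sex difference. The causes were not tested. Leaving out 1 array in turn gave 1 to 3 for the mean strain difference (1 without KK-M replicate 3 or KK-F replicate 1), 0 to 1 in KK-M v KK-F (1 without KK-M replicate 2), 0 to 1 in C57-M v C57-F (1 without C57-F replicate 1) and 0 to 1 for the mean sex difference (0 without C57-M replicate 1 or 2, KK-M replicate 1 or 3, C57-F replicate 3, or KK-F replicate 1 or 3). The interaction of the dimmer H2bc4, H2bc6 and H2bc8 probeset lost its call with no variance moderation (adjusted p 0.066), without C57-M replicate 2 (-0.88) and without KK-F replicate 1 (-0.94), and its sex difference in KK/HIJ without KK-F replicate 1 (-0.62). The brighter probeset ranged from -2.69 to -1.47 in males as 1 array was left out, with an adjusted p of at most 0.011. With no filter, 2 shared probesets were called in KK-M v C57-M and 5 in KK-F v C57-F, and with no fold threshold 3 and 5. In KK-M v KK-F the count of shared probesets ranged from 0 to 2 over all alternatives. Same-numbered arrays showed no strong shared deviation (3 of 18 pairs above a correlation of 0.1, range -0.0975 to 0.122). This cannot exclude that arrays of 1 number were processed together. The replicate block left the count of members at 1 in KK-M v C57-M, at 3 in KK-F v C57-F and at 0 in both sex comparisons within a strain. It left the count at 0 in the interaction, at 2 for the mean strain difference and at 1 for the mean sex difference.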
